A study of Arabidopsis thaliana with 4 samples.

Results

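The transcripts of 4 calmodulin-like genes, CML23 (AT1G66400), CML38 (AT1G76650), CML41 (AT3G50770) and CML42 (AT4G20780), were followed in leaves of Arabidopsis thaliana. The members were the probe sets whose single gene in the platform annotation carried one of these names, which gave 4 probe sets for 4 genes out of 22746 plant probe sets on the ATH1 array. A probe set is a group of short oligonucleotides that read 1 transcript near its 3' end. Wild-type (wt) and opr3 plants were each measured as unwounded controls and after systemic wounding, with 1 array for each of these 4 groups. In every group the plants were 6 weeks of age and had been kept at 21 °C in days of 10 h of light and 14 h of darkness. Wounding meant that part of the rosette leaves was crushed across the midvein, and RNA was taken 2 h later from leaves that had not been crushed. OPR3 encodes the 12-oxophytodienoate reductase of jasmonic acid synthesis, and the opr3 line is a mutant in this gene. The sources used here do not give its allele, its accession or the number of plants behind an array. The treatment text of the wounded opr3 sample speaks of wild-type plants, so its group rests on its title.

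Calmodulin-like proteins are calcium sensors that bind calcium through EF-hand motifs and carry no enzymatic domain of their own. Wounding of a leaf sends a calcium signal through the vasculature to undamaged leaves, where jasmonate is made and defence genes are switched on. Calmodulin-like proteins are among the sensors that can read such a signal, and transcripts of several of them respond to touch, wounding or herbivory.

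Since every group is a single array, the spread between plants was not measured, and no difference below has a test, an SD or a replicate check. Values are log2 expression values as deposited, and differences are log2 differences between single arrays. Probe sets were kept if at least 1 array reached a log2 value of 4.73, which is the 40th percentile of the whole table. All 4 members passed, among 14612 probe sets that did. A difference of at least 2-fold (log2 difference of 1) was called. The share of all 14612 probe sets past this limit is given beside the counts of members and of the calcium lists. The difference of the responses is the wounding difference in opr3 minus that in wt. Pairs of arrays correlated with Pearson's r of 0.965 to 0.993, across probe sets that are no independent replicates. The annotation names no probe set for OPR3, so its level was not analysed here. The leaf genes RCA, LHCB4.1 and PRK, the 3 named of 15 mesophyll markers written, lay between 12.2 and 13.6 in every array.

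The 4 genes had 4 different patterns over the arrays. CML41 was higher after wounding by about the same amount in both lines and lower in opr3 throughout. CML42 was higher in opr3 throughout and higher after wounding in both lines. CML38 was higher after wounding in wt and lower after wounding in opr3, where it started from a higher level. CML23 varied least.

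**Figure D1:**
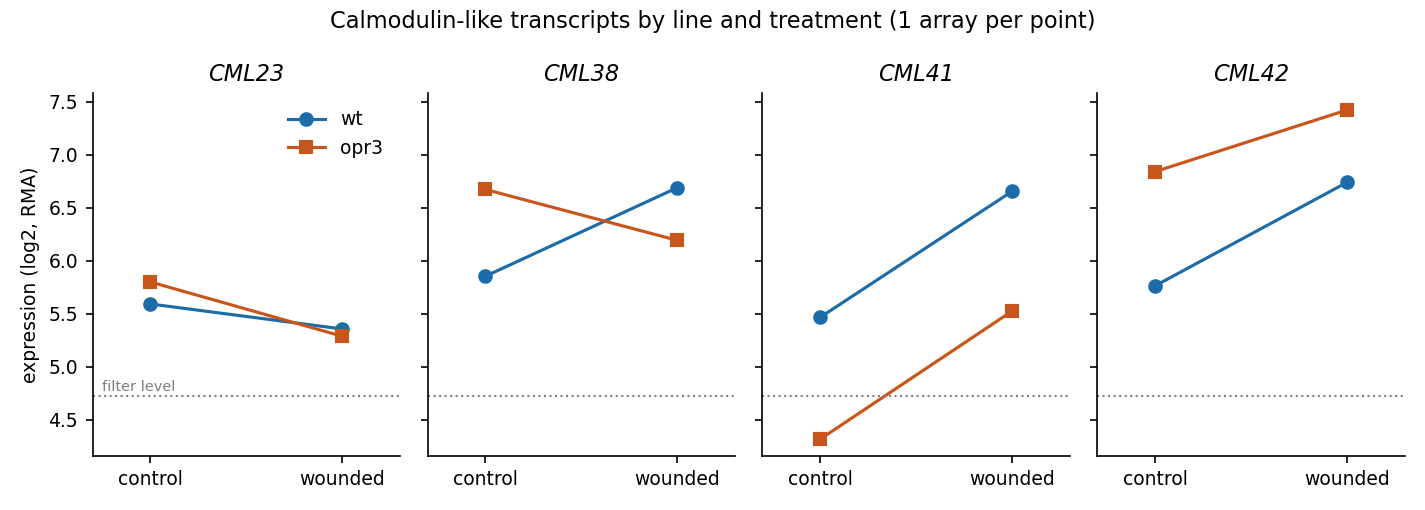
Log2 expression (y axis) of the 4 calmodulin-like genes in control and wounded plants (x axis), with wt as blue circles and opr3 as orange squares, 1 array per point and no error bars. The dotted line is the filter level of 4.73. The lines run parallel for CML41, cross for CML38 and keep opr3 above wt for CML42.

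CML41, a calmodulin-like protein known from plasmodesmata, where it acts in callose deposition during immune responses, had the widest range of the members. It was at 5.47 in wt control, 6.66 in wounded wt, 4.32 in opr3 control and 5.53 in wounded opr3. Wounded wt was thus the highest array and opr3 control the lowest, and wounded opr3 lay 0.06 above the unwounded wt level. The wounding difference was 1.19 in wt and 1.21 in opr3, or 2.28-fold and about 2.31-fold. The 2 wounding differences use no array in common, and their own difference was 0.02, which turned to -0.05 under median centring and -0.0052 under cyclic loess. Set against wt, opr3 was lower by a log2 difference of -1.15 in controls and -1.13 after wounding. The opr3 control value lies under the filter level, near background, where RMA draws values together, so the folds that rest on it are approximate. The range of 2.34 between the lowest and highest array was matched or exceeded by 1.68% of the probe sets used.

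CML42, which acts in trichome branching and in the response to insect herbivory, was lowest in wt control at 5.76. It was at 6.74 in wounded wt, 6.84 in opr3 control and 7.42 in wounded opr3. Unwounded opr3 therefore already lay at the level of wounded wt, with wounded wt minus opr3 control at -0.10. Its lowest and highest arrays, wt control and wounded opr3, lay 1.66 apart. In controls opr3 was 2.11-fold higher than wt, and 0.315% of the probe sets used had a difference as high. The wounding difference was 0.98 in wt, just under the limit, and 0.58 in opr3. After wounding opr3 was 1.60-fold higher than wt. The transcript of TRY, the 1 named gene of 5 trichome markers written, was at 6.24 and 5.78 in control and wounded wt and at 6.09 and 5.21 in opr3. TRY was thus lower in the wounded array of each line, where CML42 was higher, and its part in the CML42 values was not tested. In whole leaves, more cells of a type and more RNA per cell cannot be told apart.

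CML38, which is known as a transcript induced by wounding and by low oxygen, was the only member whose wounding differences had opposite signs. It was at 5.85 in wt control and 6.69 in wounded wt, against 6.67 in opr3 control and 6.19 in wounded opr3. Wounded wt and unwounded opr3 were the high arrays and lay 0.02 apart, and wt control was the lowest. The wounding difference was 0.84 in wt and -0.48 in opr3, neither past the limit. Their difference of -1.32 was past it, and 0.808% of the probe sets used had a value as low. It stands for a 2.49-fold ratio between a rise in wt and a fall in opr3. In controls opr3 was 1.77-fold higher than wt (log2 0.82), and 0.712% of probe sets were as high. After wounding the log2 difference between the lines was -0.50. The difference of the responses combines all 4 arrays, each with full weight, so a shift in any 1 of them would move it.

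CML23, a regulator of flowering and nitric oxide level together with its close relative CML24, had no difference past the limit. It was at 5.59 in wt control, 5.36 in wounded wt, 5.80 in opr3 control and 5.29 in wounded opr3. The values span 0.51, and 40.2% of probe sets had a range as wide. Its wounding difference was -0.24 in wt and -0.51 in opr3. The control difference was 0.21 and the wounded difference between the lines -0.07.

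In wounded wt, 1 of the 4 members was past the limit upward, against 3.94% of all probe sets used, and none downward, against 1.79%. CML41, CML42 and CML38 were nonetheless all on the high side, with 3.01%, 4.09% and 5.05% of probe sets at or above their respective values. The median of the 4 members was 0.91, against -0.05 over all probe sets. In wounded opr3, CML41 alone was past the limit upward, against 4.85% of all probe sets, and none downward, against 1.68%. The median there was 0.05, against -0.03 over all probe sets, with CML41 and CML42 above 0 and CML38 and CML23 below. It was 0.58 with the filter at the 60th percentile, which leaves out CML23.

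Between the unwounded lines CML42, CML38 and CML41 differed more than most probe sets did. Since the members were chosen with earlier results of these data known, their ranks here and above are a description and no independent evidence. CML42 was past the limit upward, against 0.417% of all probe sets, and CML41 downward, against 0.575%. CML42, CML38 and CML41 all lay outside the central 95% of differences in controls, which ran from -0.56 to 0.46. CML23 lay inside it. The wt control array enters both the wt wounding difference and the control difference. A low value in that single array would raise both for CML38 and CML42. It would also lower their difference of the responses, which the array enters too. The opr3 control array likewise enters both the control difference and the opr3 wounding difference. For CML38, a high value in it would raise the first and lower the second. For CML41, a low value in it would lower the first and raise the second. Whether either control array was off for these genes was not tested. After wounding, no member was past the limit upward in opr3 against wt, where 1.33% of all probe sets were, and CML41 was downward, where 1.66% were. In the difference of the responses, CML38 was past the limit downward, against 1.32% of all probe sets, and no member upward, against 2.07%.

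**Figure D2:**
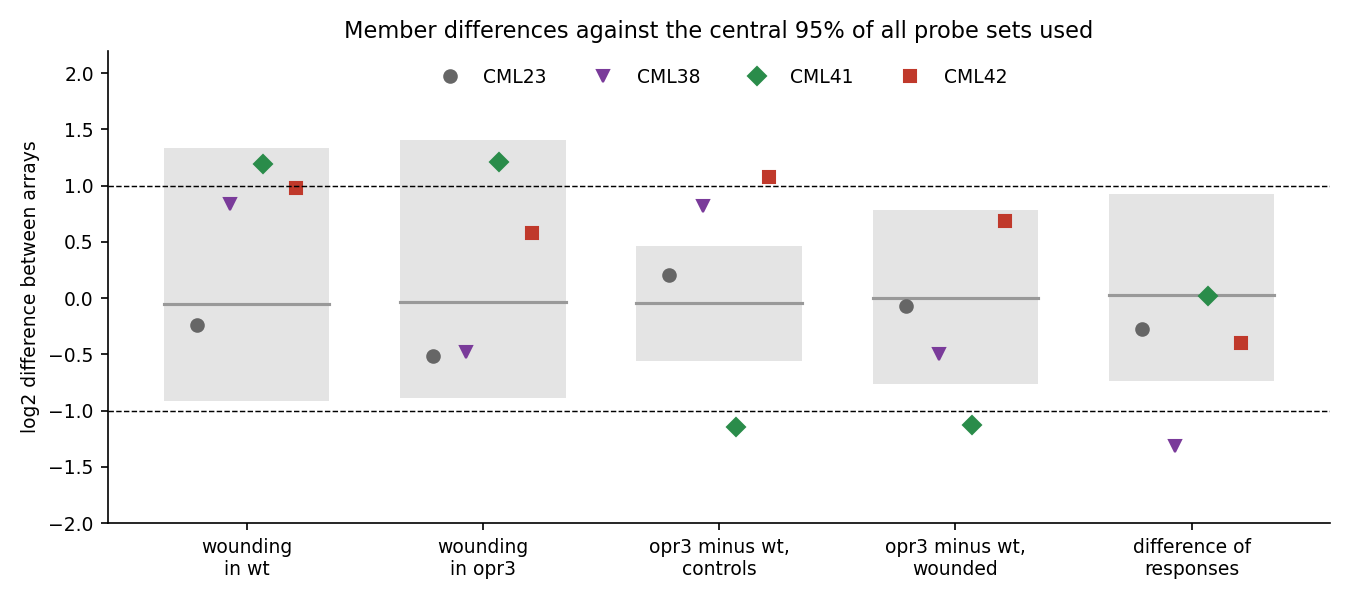
Log2 differences between arrays (y axis) of the 4 members in the 5 comparisons (x axis), each point from single arrays. Grey boxes span the central 95% of 14612 probe sets with their median as a line, and dashed lines mark the 2-fold limit. In controls CML42 (1.08) and CML38 (0.82) lie above the box and CML41 (-1.15) below it.

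The wounded wt array stood apart in the 5' minus 3' values of control probe sets. Over 9 pairs of probe sets for Bacillus transcripts among the array's controls, the mean 5' minus 3' log2 value was lowest in wounded wt at -1.76, and the other arrays lay at -1.01 (wt control), -1.10 (opr3 control) and -1.12 (wounded opr3). Over 6 pairs for plant actin, GAPDH and ubiquitin it was -1.18, against -0.86, -0.92 and -0.88. Some transcripts are read by more than 1 pair, so the pairs are not independent readings. The Bacillus transcripts do not come from the plant, so their values do not report the quality of the plant RNA. The wounded wt array enters the wt wounding difference, the comparison of the wounded lines and the difference of the responses, and the part of this shift in the members' values was not tested. The opr3 wounding difference and the control difference do not use that array.

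Among other genes with a CML symbol, CML30, CML37 and CML43 were named, of which CML30 passed the filter. AT1G76640, with CML39 among its older names, was not found by symbol and is given below with the genes beside CML38. CML30 was at 5.99 in wt control, 6.85 in wounded wt, 6.20 in opr3 control and 6.42 in wounded opr3. Wounded wt was its high array, and its wounding difference was 0.86 in wt and 0.22 in opr3, neither past the limit. CML37, a close relative of CML38 that is known to respond to herbivory, lay under the filter level in all arrays, from 3.83 in wt control to 4.50 in wounded opr3. CML43 lay between 4.40 and 4.62. With CML30 the calmodulin-like list held 5 measured genes, of which 4 are the members. Its median wounding difference was 0.86 in wt and 0.22 in opr3, against -0.05 and -0.03 over all probe sets. Both list medians are the values of CML30 itself. Since the members were chosen with earlier results of these data known, the medians are no evidence on the family.

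The remaining calcium genes were searched in 8 families by name. In 5 families (calmodulins, calcium-dependent kinases, calcineurin B-like proteins, their interacting kinases, and calcium pumps and exchangers) no probe set was named, so these were not analysed here. A further list held genes whose other names in the gene table mention calmodulin, calcium binding or EF-hands. Counting it and CML30, CML37 and CML43, 27 probe sets besides the members were named and 17 passed the filter. In wounded wt 1 of these 17 was past the limit upward and 1 downward, against 3.94% and 1.79% of all probe sets. In wounded opr3 it was 2 upward and 1 downward, against 4.85% and 1.68%. Between the control arrays (0.417% and 0.575% of all probe sets) and between the wounded arrays (1.33% and 1.66%) none was past it. In the difference of the responses 1 was past it upward and none downward, against 2.07% and 1.32%. Counts this small lie near those shares and set the list apart in no comparison. Their median wounding difference was -0.12 in wt and 0.01 in opr3, close to those of all probe sets.

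IQD23, of the IQ67-domain family of calmodulin-binding proteins, had the highest wounding differences of these genes. It was at 5.11 in wt control, 6.90 in wounded wt, 5.01 in opr3 control and 7.22 in wounded opr3. Both wounded arrays were high, with differences of 1.80 in wt and 2.21 in opr3, and the control arrays differed by -0.10. IQD28 of the same family was lower after wounding, with differences of -1.11 in wt and -0.98 in opr3, and iqd21 had -0.57 and -1.12. Of the 10 measured calmodulin-binding factors, all of them IQD genes, 4 had a wounding difference above 0 in wt and 3 in opr3. The median over all probe sets also lay below 0, at -0.05 in wt and -0.03 in opr3. The share of all probe sets above 0 was not counted, so these counts are not read as a result about the family.

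The glutamate receptor-like (GLR) genes encode calcium-permeable channels, and GLR3.3 and GLR3.6 are known to carry the wound signal from leaf to leaf. Of 7 named GLR probe sets 5 passed the filter. GLR2.7 was at 6.80 in wt control, 7.15 in wounded wt, 6.23 in opr3 control and 7.84 in wounded opr3. Wounded opr3 was its high array, and the wounding difference of 1.60 in opr3, against 0.35 in wt, was the only one of the family past the limit. Its difference of the responses, 1.25, was also past it. GLR3.3 and GLR3.6, singled out for their role after the values were seen, differed by 0.37 and -0.27 in wt and by -0.26 and 0.01 in opr3. GLR3.3 thus had the signs of CML38 in both lines, at smaller sizes.

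**Figure D3:**
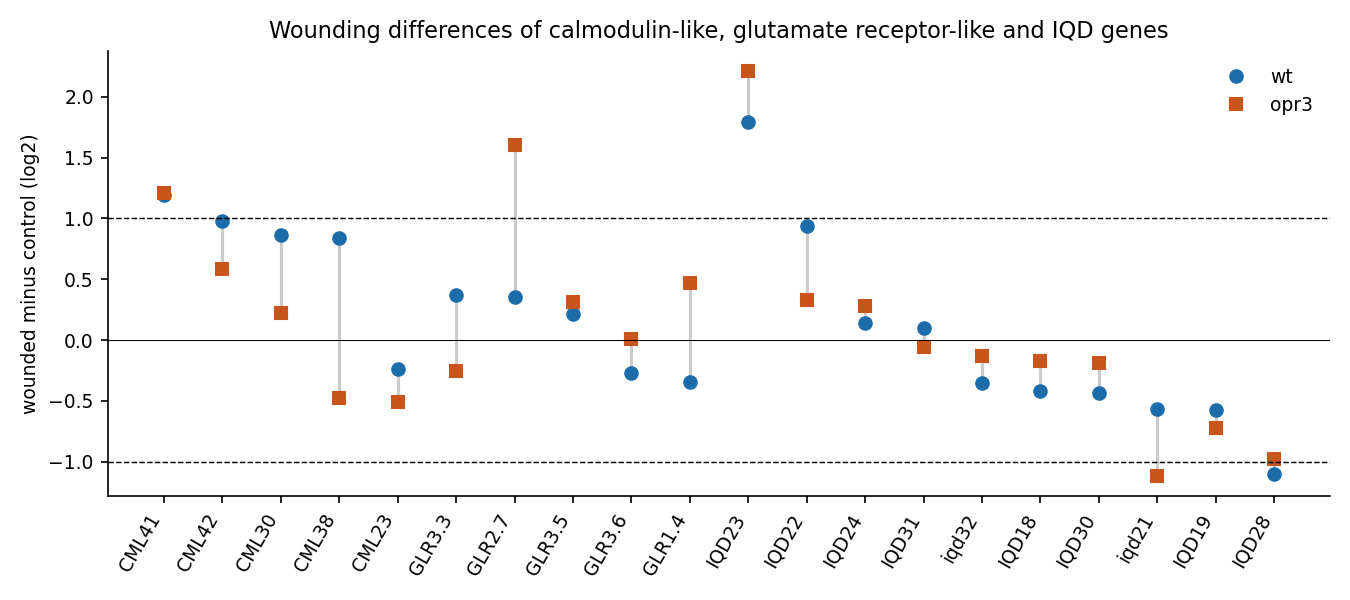
Wounded minus control log2 difference (y axis) in wt (blue circles) and opr3 (orange squares) for each measured calmodulin-like, GLR and IQD gene (x axis), 1 pair of arrays per point. Dashed lines mark the 2-fold limit. CML41 has nearly the same value in both lines, CML38 lies on opposite sides of 0, and IQD23 is highest in both lines.

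To find genes with a like pattern, the Euclidean distance to each member was taken over 3 log2 differences (wounding in wt, wounding in opr3, and the lines in controls) from the 4 arrays, among named probe sets. For CML41 the nearest was BCAT4, the methionine aminotransferase that starts aliphatic glucosinolate synthesis, at a distance of 0.23. BCAT4 was at 9.90 and 11.17 in control and wounded wt and at 8.93 and 10.25 in opr3. AT1G49450 (distance 0.46) and PUB19, a U-box ubiquitin ligase gene (0.47), followed. PUB19 had wounding differences of 0.87 in wt and 1.42 in opr3, so its lines ran less parallel than those of CML41. Of all probe sets used, 8 lay within a distance of 0.5 of CML41.

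For CML42 the nearest genes were AT2G36220 (0.25), AT2G27080 (0.36) and AT3G16530 (0.41). AT2G36220 was at 6.27 in wt control, 7.18 in wounded wt, 7.25 in opr3 control and 7.61 in wounded opr3. These genes, like the nearest genes of the other members, were picked for the likeness of their differences, so the likeness is no further evidence. AT3G16530 was at 6.58, 7.33, 7.48 and 8.37 in the same order. Within a distance of 0.5 of CML42 lay 7 probe sets.

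For CML38 the nearest were rps15, a plastid-encoded ribosomal protein gene (0.33), AT5G66650 (0.34) and AT2G21045 (0.39), with 13 probe sets within 0.5. AT5G66650 was at 4.75 and 5.58 in control and wounded wt and at 5.23 and 4.71 in opr3, close to the filter level. Wounded wt was its high array, and its wounding difference was 0.84 in wt and -0.52 in opr3. The zinc finger gene STZ, a rapid stress gene, had the same signs, at 7.79 and 8.28 in wt and 8.84 and 8.15 in opr3. Its difference of the responses was -1.18, and in controls opr3 was 1.05 above wt. WRKY53, the other named gene of 18 touch and rapid stress genes written, was 1.11 higher in opr3 controls but had wounding differences of -0.26 and -0.53.

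CML23 had many probe sets near it. The nearest were AT3G59950 and 5-FCL, the 5-formyltetrahydrofolate cycloligase gene, both at 0.03, and AT3G15690 likewise at 0.03. Within a distance of 0.5 lay 4198 probe sets, 28.7% of those used, so the names carry little. Among the members themselves the nearest pair was CML38 and CML42, at 1.10, and the farthest CML38 and CML41, at 2.62.

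**Figure D4:**
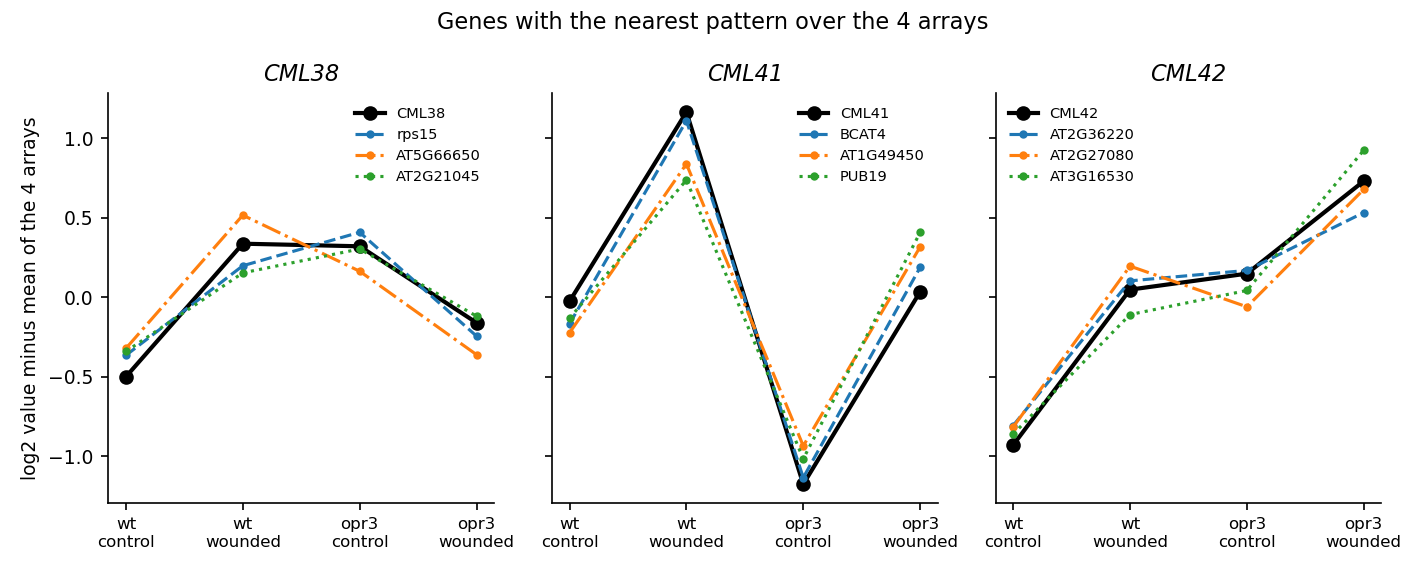
Log2 value minus the mean of the 4 arrays (y axis) in each array (x axis) for CML38, CML41 and CML42 (black) and the 3 named genes nearest to each (coloured broken lines), 1 array per point. The genes were picked for their likeness to the member over these same arrays. BCAT4, the nearest to CML41, was like it lowest in opr3 control and highest in wounded wt.

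Genes beside the members in the gene table were read as a description of their surroundings, a choice made after the members' values were seen. Of 16 protein-coding genes, 2 on each side of each member, 9 had a named probe set (10 probe sets). None of the 10 was past the limit in any of the 5 comparisons, against 10.6% of the probe sets used that were past it in at least 1 of them. The 2 sets are not alike, since AT1G76640, AT4G20770 and AT4G20790 among the 10 did not pass the filter. Next to CML41, AT3G50780 lay between 6.22 and 6.33 in all arrays. On either side of CML42, AT4G20770 and AT4G20790 lay under the filter level in all arrays, between 3.37 and 3.79. Beside CML38 lies AT1G76640, which the gene table lists with CML39 among its older names. AT1G76640 was at 3.75 in wt control, 4.28 in wounded wt, 3.62 in opr3 control and 3.60 in wounded opr3, all under the filter level. Its wounded wt value was the high one, as for CML38, but its opr3 control value lay at -0.13 relative to wt control. No neighbour of CML23 was named, although CAM4, a calmodulin gene, lies next to it.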

How the data were processed

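Total RNA (10 ug, column kit) of 4 samples was labelled with biotin and hybridised to Affymetrix ATH1 arrays, 1 per group, per the labels' protocols. The table deposited by the authors holds log2 expression after RMA, and the submitters' processing notes name RMA and Partek with no version. Apart from the gene table named below, the sources used here name no genome build. No coordinates are printed. Array means lay between 5.8954 and 5.8956, and the number of arrays limits the precision. RMA understates folds of dim probe sets.

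Names came from the platform annotation (13513 of 22746 plant probe sets with 1 gene, 503 with several), and 13436 were matched to the gene table of assembly TAIR10.1. The others are unnamed here. Log2 values of single arrays were subtracted (Python 3.11.15, pandas 2.3.3). No test was possible with 1 array per group. Steps were tested on simulated data. Named genes were the members, calmodulin-like genes, calcium genes past 2-fold, the 3 nearest patterns per member, and written marker and stress genes. GLR3.3, GLR3.6, the genes beside the members and those with opposite wounding signs were named after their values were seen. The members and lists were chosen with earlier results of these data known. Guard cell, phloem, xylem, root, and flower and seed markers had no named probe set and were not analysed here. Alternatives were median centring, quantile normalization and cyclic loess (limma 3.58.1 in R 4.3.3), filters and fold limits.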

Additional observations from a re-analysis of the deposited data

Results flagged for a closer look

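In 6 of the 21 measured genes of the calcium lists (28.6%) the wounding difference had opposite signs in wt and opr3, each from 1 pair of arrays per line. Over all 14612 probe sets used the signs were opposite in 27.1%, so the count does not set the lists apart, and some of the values lie close to 0. The difference between the lines was not tested. CML38 was at a log2 difference of 0.84 in wt and -0.48 in opr3, the widest gap among the members. GLR1.4 was at -0.35 in wt and 0.47 in opr3, and GLR3.3 at 0.37 and -0.26. GLR3.6 was at -0.27 and 0.010, the calmodulin methyltransferase gene AT4G35987 at -0.12 and 0.20, and IQD31 at 0.095 and -0.060.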

How the results depend on the processing

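No paired analysis was possible because each group holds 1 array. Across 3 other scalings the 20 member values moved by at most 0.10, and the median of all probe sets by at most 0.07. The sign of 1 member value changed, the CML41 difference of the responses. CML42 in wounded wt crossed the 2-fold limit under quantile normalization (1.0) and cyclic loess (1.05), which makes 2 members past the limit there. The calcium genes past it in wounded wt, a count that here includes the members, were then 5 under cyclic loess, against 3. With the filter at the 60th percentile the members' median was 0.58 in wounded opr3 and 0.82 in controls, since CML23 no longer passes. At a 1.5-fold limit CML38 (0.84) and CML42 (0.98) were past it in wounded wt, which makes 3 members, CML38 (0.82) in controls, which makes 2 upward, and CML42 (0.68) as 1 member upward after wounding. The calcium genes past 1.5-fold, with the members again included, were 7 in wounded wt, 4 between the wounded lines and 6 in the difference of the responses. At a 3-fold limit 0 members remained past it: CML41 at 1.19 and 1.21 in the wounding responses, -1.15 in controls and -1.13 after wounding, CML42 at 1.08 in controls and CML38 at -1.32 in the difference of the responses all lay under it. The calcium genes past 3-fold were 1 in wounded wt, 2 in wounded opr3 and 0 in the other comparisons. The shares of all probe sets past 1.5-fold and 3-fold, or past 2-fold under the other scalings, are not given here. These counts therefore show no gain or loss against all probe sets. Probe sets near background, CML41 in opr3 control among them, limit the precision of folds.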
